A study of Mus musculus with 2 samples.

Results

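The 36 autophagy genes described here were found by gene symbol among the 55536 Ensembl genes of the deposited tables, and every symbol matched 1 gene. They were chosen by name and not by any measured value. They cover initiation (Ulk1, Ulk2, Atg13, Atg101, Rb1cc1), nucleation (Becn1, Pik3c3, Pik3r4, Atg14, Uvrag, Ambra1), lipid supply and its effectors (Atg2a, Atg2b, Atg9a, Wipi1, Wipi2, Vmp1) and conjugation (Atg3, Atg5, Atg7, Atg10, Atg12, Atg16l1, Atg16l2). The rest are the ATG4 proteases (Atg4b, Atg4c, Atg4d), the ATG8 family (Map1lc3a, Map1lc3b, Gabarap, Gabarapl1, Gabarapl2) and cargo receptors (Sqstm1, Nbr1, Optn, Tax1bp1). The samples were primary neutrophils from the spleen of virgin adult male B6CASTF1/J mice aged 65 days, F1 animals whose mother was C57BL/6 and whose father was CAST/EiJ. No treatment is named, and the labels give 1 group with 2 total RNA-seq libraries, replicate 1 and replicate 2. The reads of the C57BL/6 and CAST/EiJ alleles were not separated in the tables, so every level takes both together. Whether reads of both alleles were counted equally well with the mm10 reference was not tested. Each library started from 300 ng of RNA, and ERCC spike-in RNA was added. Both libraries carry the same donor identifier and different sample identifiers. The spread between them may therefore be technical in part, and no comparison of conditions exists.

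Autophagy delivers cytoplasm, organelles and microbes to the lysosome inside a double-membraned vesicle, the autophagosome. The ULK kinase complex starts the process, a class III phosphatidylinositol 3-kinase marks the membrane with PI3P, and ATG9 and ATG2 proteins bring lipid to the growing membrane. A pair of ubiquitin-like conjugation reactions then attaches the ATG8 proteins (LC3 and GABARAP) to phosphatidylethanolamine, and ATG4 proteases prepare and remove them. Receptors such as p62, the product of Sqstm1, hold ATG8 proteins on one side and ubiquitin-tagged cargo on the other. In neutrophils autophagy genes are known for parts in differentiation, in the handling of granules and in the uptake of microbes.

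Total expected counts, the read counts after division of shared reads between genes, were 18387963 in replicate 1 and 18090108 in replicate 2. A count of 0 on a gene of 1 kb allows up to 0.138 and 0.162 TPM (3 counts, counting error only). TPM, a level per length and per depth, sets the length-scaled counts of each library to one fixed sum over all its entries. The 7SL RNA genes took 43.8% of that sum in replicate 1 and 31.6% in replicate 2. Protein-coding genes had 32.8% and 45.4% of it. TPM is therefore used for the order of genes within a library, and ratios between libraries use counts scaled by TMM, a factor that centres the bulk of genes. The libraries carried high levels of the 8 neutrophil markers checked, from 114 TPM for Cxcr2 to 27790 TPM for S100a9. All 8 were higher in replicate 2 by the exact binomial test used below, with a median log2 ratio of -0.53. The summed level of the 7 monocyte and macrophage markers was 293 and 436 TPM, most of it Ly6c2 (253.3 and 371.7 TPM). Cd68 stood at 25.17 and 45.72 TPM, Adgre1 at 7.61 and 10.59 TPM and Vcam1 at 6.67 and 8.02 TPM. C1qa stood at 0.20 and 0.11 TPM, C1qb at 0.09 and 0.11 TPM and Spic at 0.03 and 0.19 TPM. The 5 endothelial and stromal markers summed to 61.9 and 65.0 TPM, most of it Col1a1 (59.31 and 61.10 TPM), with Col3a1 at 0.13 and 0.47 TPM. The 5 B cell markers summed to 4.49 and 17.4 TPM, the 5 erythroid markers to 31.7 and 75.1 TPM, and the 4 platelet markers to 17.0 and 13.8 TPM. The 4 eosinophil markers summed to 11.7 and 18.8 TPM and the 5 T cell markers to 0.56 and 0.59 TPM. The 4 NK cell markers summed to 10.5 and 8.27 TPM, nearly all of it Nkg7 (10.48 and 8.27 TPM), with Ncr1 and Eomes at 0.00. The 4 dendritic cell markers summed to 1.13 and 1.87 TPM, most of it Flt3 (1.04 and 1.51 TPM), with Xcr1 at 0.00. The part of other cells in the levels below was not tested.

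All 36 autophagy genes were detected in both libraries, and by deposited gene TPM most of them were well above the level of the typical protein-coding gene. Their median level was 22.2 TPM (replicate 1) and 24.3 TPM (replicate 2), or 23.3 ± 1.44 TPM (all errors are SD over both libraries, n = 2). The median of the 12050 protein-coding genes with enough counts to be tested was 7.56 ± 1.03 TPM. At 10 TPM or more in both libraries stood 28 of the 36, where 22.3% of the 22028 protein-coding genes do. The 22028 include genes with few or no counts, and of the 12050 tested protein-coding genes 4909 reached that level. By the mean of both libraries the order was led by the ATG8 gene Gabarap, the receptor gene Sqstm1 and the ATG8 gene Map1lc3b. In replicate 1 the lipid transfer gene Atg2a (154.5 TPM) stood above Map1lc3b (139.6 TPM), and by the kallisto mean Map1lc3b came first (221 TPM), before Sqstm1 (187), Gabarap (176) and Atg2a (173). At the bottom were the E2-like enzyme gene Atg10 and the protease gene Atg4c. From Gabarap to Atg10 the mean level fell from 221.9 to 1.39 TPM. Together the 36 genes made up 0.503% of protein-coding TPM in the first library and 0.419% in the other.

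**Figure D1:**
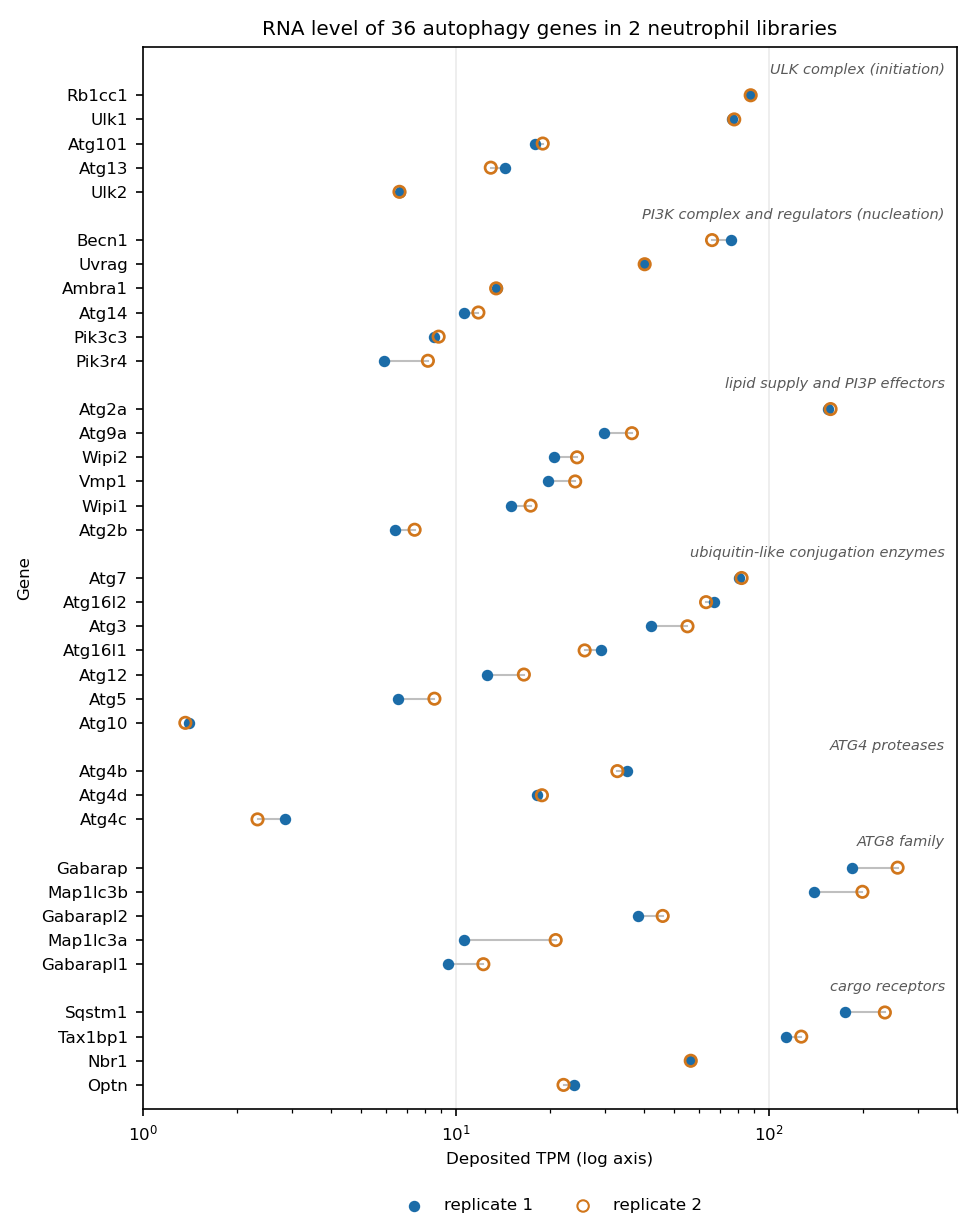
Deposited TPM of the 36 autophagy genes (log axis), grouped by role and ordered by mean level within each role, with a filled point for replicate 1 and an open point for replicate 2. Gabarap, Sqstm1 and Map1lc3b stood above 130 TPM in both libraries, Atg10 stood at 1.41 and 1.37 TPM, and Map1lc3a has the widest gap, from 10.65 to 20.89 TPM.

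To compare the libraries, each gene's pair of counts was put to an exact binomial test (two-sided, given TMM library sizes), adjusted by Benjamini-Hochberg over 15118 genes. The test asks whether these libraries differ beyond counting error and says nothing about a condition. Of the 36 genes, 13 were higher in replicate 1, where 15.0% of all tested genes were, and 5 were higher in replicate 2, where 17.0% were. In either direction 32.1% of tested genes passed. Of the 36, 34 had at least 500 counts over both libraries, and among the 6375 protein-coding genes with such counts 20.3% were higher in replicate 1 and 26.5% in replicate 2. No autophagy gene that passed differed as much as 2-fold. Such calls were few among all genes too, at 889 of 15118 tested genes and 432 of 12050 tested protein-coding genes. The median log2 ratio, replicate 1 over replicate 2, was 0.12 with a range from -0.66 (Map1lc3a) to 0.55 (Atg10). The direction rests on the scaling: with scaling to the ERCC spike-ins the median of all genes moved to -0.74, none of the 36 was higher in replicate 1 and 35 were higher in replicate 2. The ratios below thus say how a gene compares with the bulk.

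The calls followed the roles unevenly. All 3 called ULK complex genes, all 3 called nucleation genes, Atg2a and Atg4b were higher in replicate 1, and all 3 called ATG8 genes were higher in replicate 2. Conjugation genes split 3 to 1 and cargo receptors 2 to 1 in favour of replicate 1. Whether roles differ from each other was not tested. The ratio also moved with transcript length over all genes, a description added after the values were seen. Among well-covered protein-coding genes whose longest coding transcript had 204 to 2302 nt, the median ratio was -0.17 and 75.9% were higher in replicate 2. In the next bins of length the medians were -0.04 (2303 to 3513 nt), 0.01 (3514 to 5126 nt) and 0.08 (5128 nt and over), and the share higher in replicate 2 dropped to 56.3%, 47.4% and 33.8%. The 6 autophagy genes of the shortest bin had a median of -0.15, and the 10 of the longest bin a median of 0.16 with none higher in replicate 2. The part of length in the ratios of the autophagy genes was not tested.

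**Figure D2:**
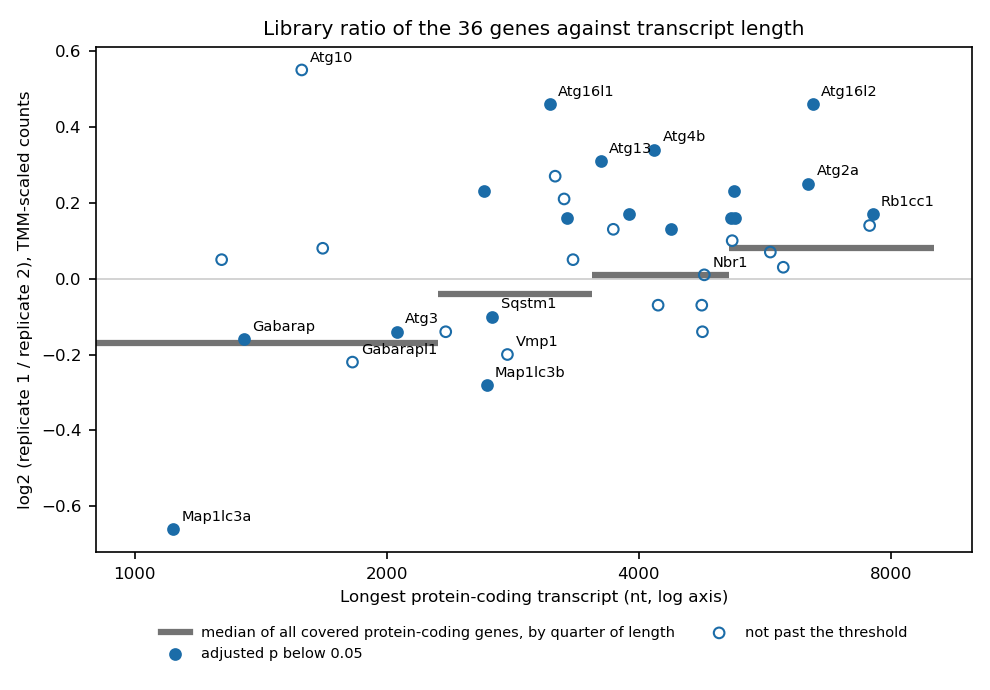
Log2 ratio of TMM-scaled counts, replicate 1 over replicate 2, against the length of the longest protein-coding transcript (nt, log axis) for the 36 genes, with filled points for genes past an adjusted p of 0.05 and grey bars for the median of all well-covered protein-coding genes in each of 4 bins of length with nearly equal numbers of genes. The bars run from -0.17 in the shortest bin to 0.08 in the longest, with Map1lc3a lowest at -0.66 and Atg16l1 and Atg16l2 at 0.46.

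The ULK complex was led by its scaffold and by one of its kinases. Rb1cc1 (chromosome 1, 6206197 to 6276648, mm10), which encodes the scaffold FIP200, stood at 87.21 TPM in replicate 1 and at 87.68 TPM in replicate 2. The kinase gene Ulk1 (chromosome 5, 110784488 to 110810097) stood at 76.20 and 77.69 TPM. By gene TPM Rb1cc1 stood above Ulk1 in each library. With counts divided by the length of the longest coding transcript the order was the other way. On that scale Ulk1 had 27.78 and 29.54 TPM and Rb1cc1 22.78 and 24.03 TPM. The related kinase gene Ulk2 was lowest of the complex, at 6.66 and 6.62 TPM. Atg101 stood at 17.98 and 18.99 TPM and Atg13, its partner subunit, at 14.44 and 12.96 TPM. In counts, Rb1cc1 had 3729.7 and 3350.9 (log2 ratio 0.17, adjusted p 5.54e-06), Ulk1 had 3099 and 2805 (0.16, 1.35e-04) and Atg13 had 633 and 516 (0.31, 1.52e-03), each by the exact binomial test. All 3 were higher in replicate 1, by 1.13-fold, 1.12-fold and 1.24-fold. Ulk1 did not pass with kallisto counts (log2 ratio 0.04, adjusted p 0.407 by the same exact test). Atg101 (396 and 388 counts) and Ulk2 (659 and 637) did not pass. The counts of Rb1cc1 were not whole numbers, so some of its reads were shared with other genes.

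Among the nucleation genes, Becn1 was highest and the kinase subunits themselves were lowest by gene TPM. Becn1 (chromosome 11, 101285952 to 101302286), which encodes the regulatory subunit Beclin 1, stood at 75.91 and 65.99 TPM. Uvrag, whose product joins Beclin 1 in a second form of the complex, stood at 39.89 and 40.20 TPM. Atg14, which directs the complex to the site of autophagosome formation, stood at 10.68 and 11.83 TPM. These levels place Uvrag above Atg14 in both libraries. The order held by the kallisto mean (40.1 against 12.8 TPM) and by counts over the longest coding transcript (13.31 against 3.71 TPM). By kallisto TPM of coding models alone it was the other way, at means of 4.20 for Uvrag and 11.7 for Atg14. The coding model Atg14-204, of 376 nt, took 68.8% and 59.8% of Atg14 TPM by kallisto. By gene TPM the catalytic subunit gene Pik3c3 stood at 8.54 and 8.83 and the pseudokinase subunit gene Pik3r4 at 5.89 and 8.16. By counts over the longest coding transcript Becn1 stayed highest, at a mean of 28.7 TPM. On that scale Pik3c3 (8.471 TPM) and Pik3r4 (4.743 TPM) stood above Atg14. Ambra1, a Beclin 1 regulator and ubiquitin ligase adaptor, stood at 13.61 and 13.48 TPM. In counts, Becn1 had 2563 and 2365 (exact binomial test, log2 ratio 0.13, adjusted p 5.78e-03), Uvrag had 1425 and 1287 (0.16, 0.0131) and Ambra1 had 1381 and 1190 (0.23, 3.31e-04). Becn1 and Uvrag did not pass with total-count scaling (adjusted p 0.0635 and 0.0676) or with kallisto counts (0.572 and 0.0614). Pik3c3 had 576 and 503 counts and an adjusted p of 0.0503, which was 0.0434 by the same exact test with a minimum of 50 counts. Pik3r4 (429 and 455) and Atg14 (282 and 260) did not pass either.

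Of the lipid supply genes, Atg2a stood far above the rest. Atg2a (chromosome 19, 6241668 to 6262335), one of the paired lipid transfer genes, stood at 154.5 and 157.8 TPM, and its paralog Atg2b at 6.40 and 7.40 TPM. Atg2b was the lowest of the 6 and Atg2a the highest. The lipid scramblase gene Atg9a stood at 29.78 and 36.60 TPM. The scramblase gene of the endoplasmic reticulum, Vmp1, stood at 19.76 and 24.11 TPM. The PI3P-binding genes Wipi2 and Wipi1 stood at 20.65 and 24.44 TPM and at 15.07 and 17.37 TPM. Wipi2 exceeded Wipi1 in each library. Atg2a alone of the 6 passed the comparison under TMM scaling, with 9938 and 8482 counts (exact binomial test, log2 ratio 0.25, adjusted p 4.2e-29). The Atg9a counts, 1924.1 and 2050, include shared reads. Vmp1 had 509 and 593 counts and an adjusted p of 0.061. Vmp1 passed as higher in replicate 2 with DESeq2 size factors, total counts and kallisto counts (exact binomial test, adjusted p 0.0413, 0.0204 and 0.0106), and Atg9a did with total counts and kallisto counts (0.0442 and 4.6e-05).

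In the conjugation list the E1-like gene was highest by RSEM gene TPM, and one E2-like gene was at the edge of precision. Atg7 (chromosome 6, 114643097 to 114860614), which activates both ubiquitin-like proteins, stood at 80.43 and 82.02 TPM. Its place at the top did not hold on other scales: the mean by kallisto was 96.1 TPM against 102 for Atg16l2, and by counts over the longest coding transcript 42.35 TPM against 48.75 for Atg3. The E2-like gene Atg3, which passes ATG8 proteins to lipid, stood at 42.13 and 55.08 TPM. Atg10, the E2-like gene for ATG12, stood at 1.41 and 1.37 TPM from 32 and 22 counts. Its deposited TPM intervals, 0.978 to 2.09 and 0.824 to 2.05, overlap almost entirely. Atg12, the ubiquitin-like protein itself, stood at 12.58 and 16.53 TPM, and Atg5, to which it is joined, at 6.53 and 8.56 TPM. The partner gene Atg16l1 stood at 29.10 and 25.85 TPM and its paralog Atg16l2 at 66.87 and 63.15 TPM. Atg16l2 stood above Atg16l1 in both libraries by gene TPM. By counts over the longest coding transcript the order was the other way, at 12.69 against 19.6 TPM.

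Of these 7 genes, 3 were higher in replicate 1 and 1 in replicate 2. Atg16l2 had 1890 and 1389 counts (exact binomial test, log2 ratio 0.46, adjusted p 2.61e-18) and Atg16l1 had 1390 and 1022 (0.46, 1.42e-13). These paralogs showed the largest ratios among the called genes after Map1lc3a, at 1.38-fold each. Atg7 had 3415 and 3062 counts (0.17, 1.05e-05). Atg3 was higher in replicate 2, with 1804 and 2008 counts (-0.14, 0.0134). Atg12 (894 and 996), Atg5 (321 and 358) and Atg10 did not pass, though Atg12 did with total counts (exact binomial test, adjusted p 0.0283). Genes lie inside some of these: the small RNA gene Gm25395 within Atg16l1 had 1524 and 1072 counts, and the pseudogene Gm19040 within Atg7 had 780.8 and 422, both higher in replicate 1 (log2 ratios 0.52 and 0.90). A second small RNA gene within Atg16l1, Scarna6, had 434 and 465 counts (log2 ratio -0.08) and did not pass. All of these are on the strand of their host, so reads from host and inner gene may not be fully separated.

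The proteases were ordered the same way in both libraries by gene TPM. Atg4b (chromosome 1, 93751500 to 93790610), known as the main ATG8 protease, stood at 35.33 and 32.88 TPM, Atg4d at 18.19 and 18.88 TPM and Atg4c at 2.86 and 2.33 TPM. Atg4c rested on 141 and 118 counts. By kallisto TPM of coding models alone Atg4d, at a mean of 1.58, stood below Atg4c at 2.66. Atg4b was higher in replicate 1, with 1023 and 819 counts (exact binomial test, log2 ratio 0.34, adjusted p 5.25e-06). Atg4d had 696 and 692 counts and did not pass. Atg4d overlaps Kri1, a gene on the opposite strand with 38.06 and 37.87 TPM. The strand setting of the counting is not given in the sources used here, so the Atg4d and Kri1 reads cannot be told apart with certainty. The fourth protease gene of the mouse, Atg4a, is outside the 36 and stood at 4.05 and 4.38 TPM.

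The ATG8 genes spanned a wide range, with Gabarap and Map1lc3b far above their 3 relatives. Gabarap (chromosome 11, 69991143 to 69994951) stood at 185.3 and 258.4 TPM, at percentile 98.9 of protein-coding genes. Map1lc3b (chromosome 8, 121590361 to 121598760), the gene of LC3B, stood at 139.6 and 199.5 TPM. Gabarapl2 (chromosome 8, 111940703 to 111953612) stood at 38.28 and 45.90 TPM. By this RSEM gene TPM Gabarap was the highest of the family and Map1lc3b the next in each library. By kallisto the order was the other way in both, at 127.0 and 225.6 TPM for Gabarap and 161.8 and 279.7 TPM for Map1lc3b. Map1lc3a (chromosome 2, 155276297 to 155278073), the gene of LC3A, stood at 10.65 and 20.89 TPM. Gabarapl1 (chromosome 6, 129533160 to 129542346) stood at 9.49 and 12.27 TPM. All 5 had a higher TPM in replicate 2, and their sum was 383 and 537 TPM. As a share of protein-coding TPM that sum was 0.117% and 0.118%.

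By counts, 3 of the 5 were higher in replicate 2. Map1lc3b had 6349.6 and 7826 counts (exact binomial test, log2 ratio -0.28, adjusted p 4.13e-30). Its count in replicate 1 was not a whole number, so some of its reads were shared with other genes. The gene model Gm20388 spans it on the same strand and had 463.2 and 202.8 counts, and whether the shared reads lie there was not tested. Gabarap had 3530 and 3991 counts (-0.16, 1.25e-05). Map1lc3a had 202 and 324 counts (-0.66, 1.83e-06), which is 1.58-fold and the largest difference among the 36. Its ratio lay at percentile 7.59 of tested protein-coding genes, so lower ratios were not rare. Gabarapl1 had 319 and 376 counts (-0.22) and did not pass, but it did with kallisto counts (exact binomial test, adjusted p 0.00614). Gabarapl2 had 805 and 773 counts (0.08, adjusted p 0.471), so its higher TPM in replicate 2 had no match in scaled counts. Gabarap, Map1lc3b, Map1lc3a, Sqstm1 and Atg3, the genes higher in replicate 2, kept that call under each scaling tried. Every other scaling moved the median of all genes toward replicate 2, to -0.02 (DESeq2 size factors), -0.04 (total counts) and -0.74 (ERCC). Such a shift could hardly remove a call in that direction, so the kept calls are no check of it.

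Gabarapl2 and Map1lc3a each had most of their TPM on a full coding transcript and a model that begins in the first intron. The full coding transcript Gabarapl2-201 took 31.6% and 24.5% of Gabarapl2 TPM by kallisto. The retained-intron model Gabarapl2-203, of 749 nt, took 57.8% and 59.8%, and 47.1% and 48.1% by RSEM. By estimated counts the order turned, with 56.5% and 48.7% on Gabarapl2-201 and 37.2% and 41.4% on Gabarapl2-203. Another retained-intron model, Gabarapl2-202, took 10.7% and 15.7% of TPM by kallisto and 18.1% and 23.1% by RSEM. Gabarapl2-203 starts 92 bases before exon 2 (chromosome 8, 111941160 to 111941215) and runs through into it. Of its bases 87.7% lie in exons of coding models, so few of its reads can mark it. The 30 bases around the start of the shared exon show where the models part, with the shared exon in capitals and the sequence from GENCODE M21 transcripts:
Gabarapl2-201: aggaccactctctggAACACAGATGCGTGG
Gabarapl2-203: tttcttcttccccagAACACAGATGCGTGG
The lower-case part of Gabarapl2-201 is the end of exon 1, and that of Gabarapl2-203 is intron sequence ending in AG. Map1lc3a showed a like pair of models. Map1lc3a-201 took 66.0% and 57.6% of Map1lc3a TPM by kallisto. Map1lc3a-203, a processed transcript of 826 nt with no coding sequence annotated, took 34.0% and 42.4%. RSEM gave both models nearly equal shares in replicate 1, and 38.1% to Map1lc3a-201 and 61.9% to Map1lc3a-203 in replicate 2. Map1lc3a-203 starts 69 bases before exon 2 (chromosome 2, 155276958 to 155277013), and 91.6% of its bases lie in exons of coding models:
Map1lc3a-201: agcggcgcagcttcgCCGACCGCTGTAAGG
Map1lc3a-203: gagctctgtccgcagCCGACCGCTGTAAGG
Here too the lower-case bases of the second model are intron sequence ending in AG. Reads across these junctions were not analysed here, so how much of each form was present rests on the quantifiers.

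The cargo receptors were the role list with the highest median, at 88.3 ± 4.93 TPM. Sqstm1 (chromosome 11, 50199366 to 50210827), which encodes p62, stood at 175.4 and 235.3 TPM. Tax1bp1 (chromosome 6, 52713729 to 52766780), a ubiquitin-binding receptor, stood at 113.6 and 127.2 TPM. Nbr1, a relative of p62, stood at 56.12 and 56.42 TPM, and Optn, the gene of optineurin, at 23.83 and 22.13 TPM. Both Sqstm1 and Tax1bp1 lay above every conjugation gene. By counts, Sqstm1 was higher in replicate 2 with 5398 and 5845 (exact binomial test, log2 ratio -0.10, adjusted p 1.73e-03), while Tax1bp1 with 6859 and 6209 (0.16, 2.94e-09) and Optn with 815 and 704 (0.23, 9.45e-03) were higher in replicate 1. Nbr1, with 1863 and 1873 counts (0.01, 0.929), had the ratio closest to 0 among the 36. Sqstm1 differed by only 1.07-fold. Sqstm1-202 led its gene, with 58.5% and 59.1% of TPM by kallisto, and it led by RSEM too. Tax1bp1-201 likewise took 50.8% and 52.5% by kallisto and 52.7% and 53.4% by RSEM.

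Coding transcript models held a smaller share of TPM in the autophagy genes than in the typical protein-coding gene. The median share on models annotated as protein-coding was 52.2% in replicate 1 and 53.1% in replicate 2 by kallisto, and 51.9% and 54.1% by RSEM. In the 9544 protein-coding genes with over 1 transcript and at least 1 TPM it was 68.8% and 72.0%, and 73.0% and 76.3% by RSEM. The 70 other pathway genes described below had medians of 78.2% and 79.9%. The share was below 50% in both libraries for 15 of the 36 and at least 75% in both for 11. Among the 9544 genes 21.9% were below 50% and 38.0% at 75% or more in both libraries. The lowest shares were those of Atg4d (5.72% and 8.83%), Atg16l2 (7.75% and 9.45%), Uvrag (9.37% and 11.6%) and Becn1 (14.9% and 15.5%). Atg101 and Gabarapl1 had all of their TPM on coding models, and Gabarap had 90.4% and 90.2%.

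The same share taken over estimated counts was higher, with medians of 75.3% and 71.4%, against 85.1% and 87.1% in the 9544 genes. TPM divides counts by length, so a short model gains share. Atg16l2-201, of 6459 nt, took 7.39% and 7.61% of Atg16l2 TPM and 57.7% and 53.6% of its estimated counts. Ulk1 had 32.1% and 37.1% of TPM but 87.1% and 90.3% of counts on coding models, and Atg2a had 46.4% and 44.5% against 89.1% and 88.3%. For Becn1 the share stayed low on both scales, with 18.7% and 15.4% of counts. Atg4d also stayed low, at 24.7% and 33.2% of counts. In Becn1 the retained-intron model Becn1-210, of 3476 nt, took 39.3% and 39.0% of estimated counts. Of its bases 68.2% lie in exons of coding models, and of those of the retained-intron model Atg4d-203 90.5%. Few reads can thus mark Atg4d-203, and how much RNA of either gene kept an intron was not tested. In Map1lc3b the order was the reverse, with 85.4% and 87.3% of TPM and 65.1% and 66.2% of counts on coding models.

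**Figure D3:**
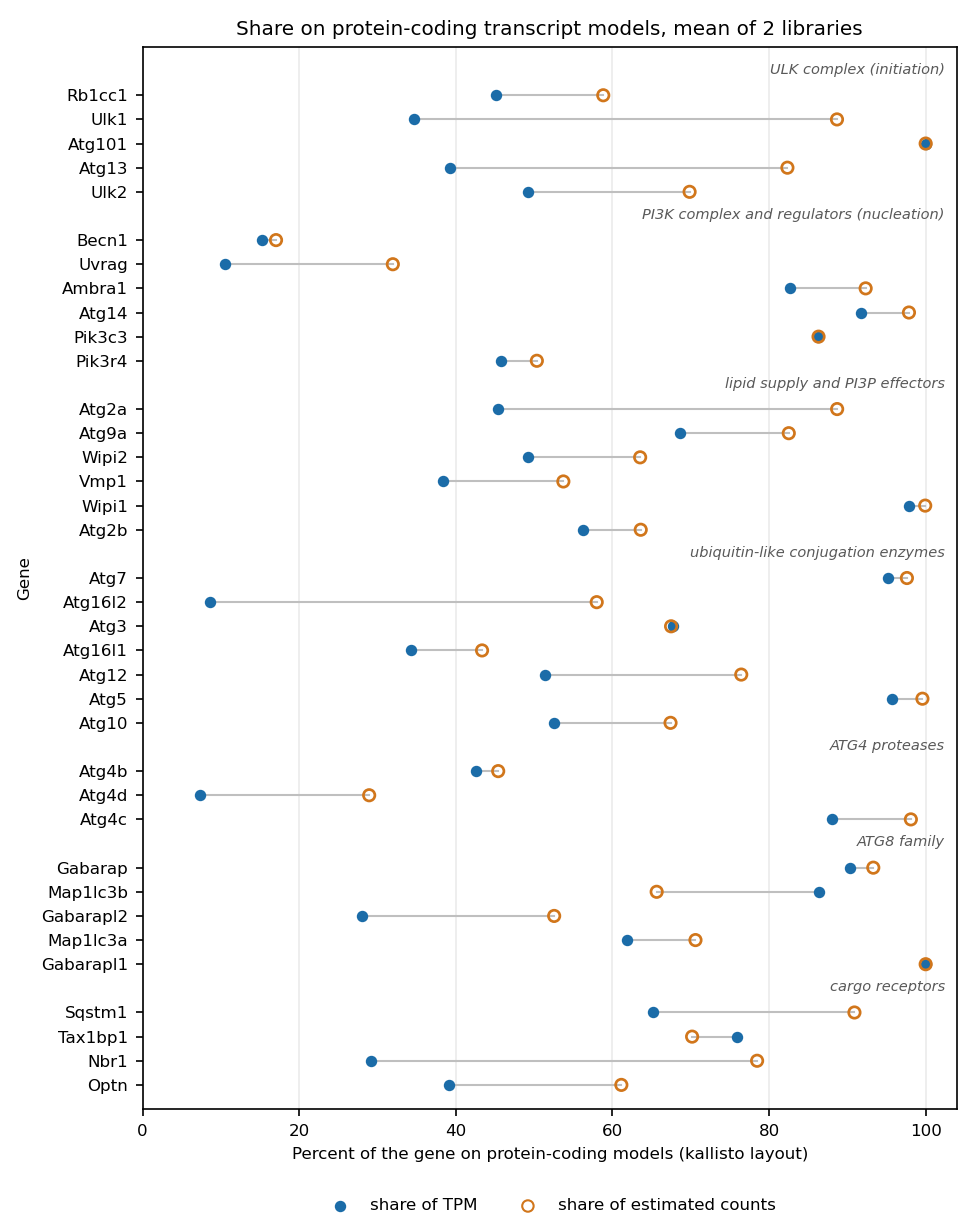
Percent of each gene on transcript models annotated as protein-coding by kallisto, mean of both libraries, as a share of TPM (filled) and of estimated counts (open), grouped by role. The points lie far apart for Atg16l2, Ulk1, Nbr1 and Atg2a and close together for Becn1, Atg3 and Pik3c3, and both lie at 100% for Atg101 and Gabarapl1.

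The leading transcript, the model with the largest share of the gene's TPM, was the same in both libraries by both quantifiers for 23 of the 36 genes. Among the 9544 genes the share was 52.5%. In 24 of the 36 the lead was a coding model in all 4 tables, in 5 it was mixed, and in 7 it was noncoding in all 4, where 8.21% of the 9544 genes were. These 7 were Atg4d, Atg16l1, Atg16l2, Becn1, Uvrag, Gabarapl2 and Vmp1. Atg4d-203, a retained-intron model of 2123 nt, took 38.0% and 43.1% of Atg4d TPM by kallisto and 45.7% and 50.9% by RSEM. It also led by estimated counts, with 54.4% and 53.1%. Vmp1-206, a processed transcript of 931 nt, took 50.4% and 52.5% by kallisto and 62.3% and 57.2% by RSEM, but the coding Vmp1-201 led by counts with 47.1% and 55.2%. Uvrag-202 led by kallisto and Uvrag-204 by RSEM. Atg16l1-209 led in replicate 1 and Atg16l1-205 in replicate 2. In Becn1 the lead was Becn1-209 except by RSEM in replicate 2, where it was Becn1-202, and in Atg16l2 it was Atg16l2-210 except by RSEM in replicate 1, where it was Atg16l2-203.

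The mixed genes were Atg10, Rb1cc1, Map1lc3a, Nbr1 and Optn. For Rb1cc1 kallisto gave the lead to Rb1cc1-202, a processed transcript of 519 nt with 23.5% and 19.1%, and RSEM gave it to the coding Rb1cc1-216 with 22.5% and 18.6%. For Optn the processed transcript Optn-204 led by kallisto with 42.1% and 39.5%, just above the coding Optn-202 with 39.8% and 38.3%. Nbr1, with 21 models, had a different lead in each of the 4 tables. Atg10-202 had 0% and 70.8% by kallisto, from a gene with few counts. Leads also differed between tables, all of them coding, for Atg7, Gabarap, Map1lc3b and Ambra1. Gabarap-201 took 86.3% and 53.0% by kallisto, while by RSEM Gabarap-202 led with 54.9% and 62.3%. Map1lc3b-203 led by kallisto with 52.3% and 51.6%, and Map1lc3b-201 by RSEM with 33.2% and 36.2%. By estimated counts the lead was coding in both libraries for 31 of the 36. The exceptions were Becn1-210, Atg4d-203, Atg4b-202 and Map1lc3b-202, all retained-intron models, and Atg10-202 in replicate 2.

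Gene levels were less dependent on the quantifier than transcript levels. Between kallisto and RSEM gene TPM none of the 36 was over 2-fold apart, one way, in each library, where 4.19% of 10378 protein-coding genes did. None was at 1.5-fold either, for which no share of all genes is given here. In 1 library only, kallisto was over 1.5-fold above RSEM for Atg16l2 (replicate 1, log2 ratio 0.75), Becn1 and Atg13 (replicate 2, 0.69 and 0.60). The level did depend on the length used. Gene TPM sums over all models, short ones included. Counts divided by the longest coding transcript gave a lower mean level for most genes, with Spearman's rho of 0.93 between both orders of the 36 genes, which share their counts. Gabarap stayed first at 150.6 TPM, Map1lc3b came next at 140.6 and then Sqstm1 at 109.2. Tax1bp1 followed at 101.8 and Atg2a at 72.73, with Atg3 moving from rank 12 to rank 6 at 48.75. Rb1cc1 moved from rank 6 to rank 12 at 23.4. Atg16l2 moved from rank 10 to rank 20, Atg4d from 21 to 30 at 5.91, and Atg14 from 28 to 34 at 3.71. Atg4c and Atg10 stayed lowest, with Atg10 at 0.894.

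**Figure D4:**
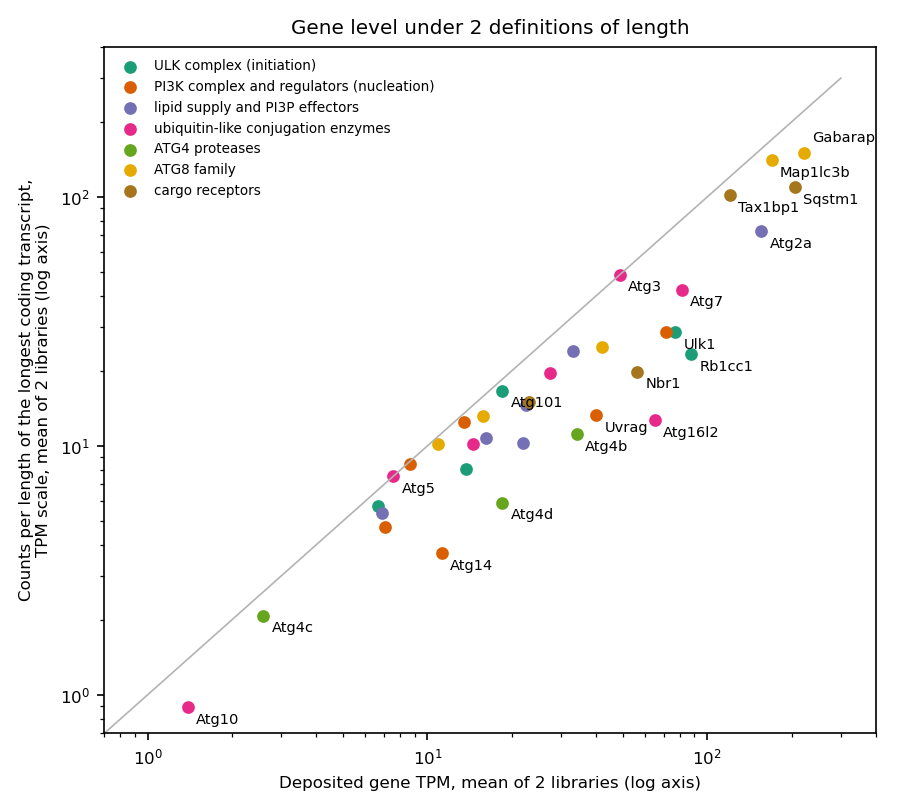
Mean level of the 36 genes by counts over the longest protein-coding transcript (y, TPM scale, log axis) against deposited gene TPM (x, log axis), colored by role, with the line of equality. Atg3 lies on the line, most genes lie below it, and Atg16l2 lies far below it at 12.69 against 65.01 TPM.

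Genes of the pathway outside the 36 were read from 5 lists with 70 members. Their median was 19.1 ± 0.993 TPM, 43 stood at 10 TPM or more in both libraries and 3 below 1 TPM in both. Of the 68 with enough counts, 14 were higher in replicate 1 and 17 in replicate 2, with a median log2 ratio of -0.03. None was called with 2-fold or more, where 432 of 12050 tested protein-coding genes were. The list of other core genes had a median of 8.75 ± 1.38 TPM, with 3 of 11 higher in replicate 1 and none in replicate 2. It was led by Sh3glb1, a Beclin 1 partner through UVRAG, at 58.98 and 87.28 TPM, and by the PI3P-binding gene Wdr45b at 38.96 and 41.56 TPM. Atg4a was its lowest member.

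The upstream kinases and TORC1 genes, which set the activity of the ULK complex, had a median of 14.8 ± 2.05 TPM, with 5 of 15 tested higher in replicate 1 and 3 in replicate 2. Stk11, the gene of the kinase LKB1, stood at 78.94 and 85.07 TPM and the AMPK subunit gene Prkag1 at 75.08 and 69.44 TPM. The AMPK catalytic genes differed, with Prkaa1 at 7.98 and 10.52 TPM and Prkaa2 at 4 and 1 counts. Mtor itself stood at 9.26 and 11.63 TPM. The transcription regulators had a median of 21.2 ± 3.37 TPM, and 6 of 10 were higher in replicate 2 and none in replicate 1. Atf4 stood at 162.1 and 223.9 TPM and Ddit3 had 874 and 1110 counts. Tfeb, the regulator of lysosome and autophagy genes, stood at 38.86 and 38.38 TPM, and its relative Tfe3 at 28.63 and 37.74 TPM. Foxo1 was the lowest, with 128 and 248 counts (exact binomial test, log2 ratio -0.93, adjusted p 1.44e-08).

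The fusion genes had a median of 23.6 ± 0.304 TPM, with 4 of 16 higher in replicate 1 and 3 in replicate 2. Rab7, the small GTPase of late endosomes, stood at 190.9 and 191.8 TPM, and the lysosomal membrane gene Lamp1 at 87.06 and 137.9 TPM. Lamp1 was higher in replicate 2, with 3811 and 5269 counts (exact binomial test, log2 ratio -0.45, adjusted p 1.4e-47). The SNARE gene Snap29 was the lowest, at 5.38 and 7.16 TPM. The other selective autophagy genes had a median of 22.2 ± 5.45 TPM, with 2 of 16 tested higher in replicate 1 and 5 in replicate 2. Ccpg1, a receptor for the endoplasmic reticulum, stood at 147.4 and 178.4 TPM, and the mitochondrial receptor gene Bnip3l at 85.24 and 128.6 TPM.

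Tfeb, Tfe3 and Mitf proteins are known to bind the E-box CACGTG, so the promoters of the autophagy genes were searched for it. RefSeq windows of GRCm38.p6, from 250 bases before to 50 after a start, were on hand for 30 of the 36 genes. The letters CACGTG, which read the same on both strands, occurred in 4 of the 30 (13.3%), in 8.09% of all 27025 genes and in 13.0% of 3944 protein-coding genes at 10 TPM or more. The form TCACGTG on either strand, which contains it, occurred in 3 of the 30, against 4.29% and 8.75%. The form TCACGTGA occurred in 1 (3.33%), against 1.12% and 2.92%. The share in the autophagy genes was thus near that of other genes of such levels. The 4 genes were Atg3, Atg5, Atg7 and Atg14, whose windows are printed with the E-box in capitals, 60 bases each, on the strand of the gene:
Atg3, chr16:45158708-45158767, plus strand: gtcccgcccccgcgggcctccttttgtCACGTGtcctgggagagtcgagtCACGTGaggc
Atg5, chr10:44268298-44268357, plus strand: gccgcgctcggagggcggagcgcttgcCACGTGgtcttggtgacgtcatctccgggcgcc
Atg7, chr6:114670937-114670996, plus strand: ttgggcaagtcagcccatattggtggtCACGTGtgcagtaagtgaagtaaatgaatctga
Atg14, chr14:47568403-47568462, minus strand: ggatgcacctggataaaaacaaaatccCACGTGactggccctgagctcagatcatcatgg
Atg3 holds the letters in 2 places, starting 94 and 71 bases before its RefSeq start. They start 14 bases before that of Atg5, 132 before that of Atg7 and 1 before that of Atg14. The windows of Atg7 and Atg14 lie inside the GENCODE gene, so they belong to inner starts. A match of letters is a description, and binding was not measured.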

How the data were processed

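The authors deposited 3 tables per library, made with mm10 and GENCODE M21 per the file headers and accompanying notes. A gene and a transcript table in the layout of RSEM hold expected counts, TPM and FPKM, which the authors derived from transcriptome alignments, with bounds of a TPM interval whose level is not given. A transcript table in the layout of kallisto holds estimated counts and TPM that the authors derived from the FASTQ files, per the deposited notes. Aligner, program versions and the strand setting of the counting were not given in the sources used here. The kit is directional per the labels' protocols. RSEM and kallisto name these layouts here.

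From these files, expected counts were rounded and compared with an exact binomial test given TMM library sizes (edgeR 4.0.16, R 4.3.3), for genes whose counts summed to at least 10 over both libraries, adjusted by Benjamini-Hochberg at 0.05. Ratios have 0.5 added to each count. Each side has 1 library, so the test covers counting error only, and without molecular identifiers several reads can stem from one molecule. The quantifiers were compared with 0.1 TPM added. Transcript shares are percent of the gene's kallisto TPM unless RSEM or counts are named, and a coding model is one of protein-coding biotype. Counts were called whole within 0.005, which held for 33 of the 36 genes. The calculation was tested on simulated data. DESeq2 1.42.0 gave alternative size factors.

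The genes named with values are the highest and lowest of each role list, those past the threshold, those whose leading transcript differs or is noncoding, and all ATG8 genes and cargo receptors, and in the other lists the 2 highest and the lowest, of which 1 is not reported here. Prkaa1, Mtor, Tfeb, Tfe3, Gm20388, Gm25395, Scarna6, Gm19040 and Kri1 were added after their values were seen. The genes and lists were chosen with earlier results of these data known.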

Additional observations from a re-analysis of the deposited data

How the results depend on the processing

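The median level of the 36 genes, 23.3 TPM, was 27.0 by kallisto, 60.6 with TPM over protein-coding genes alone and 25.7 as FPKM. Under settings added after the data were seen it was 13.8 by counts over the longest coding transcript and 12.2 by kallisto on coding models alone. It ranged from 22.2 to 24.3 with 1 library left out. The count at 10 TPM or more, 28, ran from 19 (a minimum of 20 TPM) to 34. The median coding share of 52.7% became 73.4% over estimated counts, also added later, and ran from 52.2% to 53.1% with 1 library left out.

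The 5 genes higher in replicate 2 became 8 with total counts, 8 with kallisto counts and 35 with ERCC scaling. The 13 higher in replicate 1 became 11, 10 and 0. ERCC scaling turned the sign of all 13: Ulk1 -0.58, Atg2a -0.50, Atg4b -0.40, Atg7 -0.57, Atg13 -0.43, Atg16l1 -0.28, Atg16l2 -0.28, Becn1 -0.61, Uvrag -0.58, Rb1cc1 -0.57, Optn -0.51, Tax1bp1 -0.58 and Ambra1 -0.51 (log2). It moved the median of all genes by -0.74, as its factor sets it. With kallisto counts Ulk1 also missed the threshold (adjusted p 0.407). Total counts kept 16 of the 18 calls in the same direction and kallisto counts kept 15. DESeq2 size factors, no filter on low counts and a minimum of 50 counts kept all 18. The library comparison has no value with a library left out. No paired analysis was possible because the labels give a single group. A difference in genes such as Atg10, with 32 and 22 counts, or Atg4c would have to be large to be detectable at this depth.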
